A study of Homo sapiens with 4 samples.

Results

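The genes described here are the TGF-beta and BMP signalling genes, a set of 59 symbols that covers ligands, receptors, SMAD proteins and inhibitors. Members were taken by symbol from the table of all genes, with the highest-mean row kept for a repeated symbol, and all 59 were found among 58229 genes. RNA was sequenced from CD31+ cells at day 8 of hematopoietic differentiation of the human embryonic stem cell line H1. The comparison sets 2 libraries with overexpression of HAND1 (HAND1_OE), a transcription factor of mesoderm, against 2 libraries without it (Control), to ask how these pathways differed when HAND1 was kept high. Both groups had received ligands of both pathways at the start, activin A at 40 ng/ml and BMP4 at 50 ng/ml for 2 days per the labels, while the methods of the study give these doses the other way round. Both then received VEGF at 40 ng/ml and bFGF at 50 ng/ml. Nothing in the labels says that the libraries came from separate cultures, so p-values measure the spread between these libraries, which may be technical.

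TGF-beta and BMP ligands are secreted dimers that bring together type I and type II receptor kinases on the cell surface. TGF-beta, activin and nodal act mainly through the receptors TGFBR1, ACVR1B and ACVR1C and phosphorylate SMAD2 and SMAD3, while BMPs act through ACVRL1, ACVR1, BMPR1A and BMPR1B and phosphorylate SMAD1, SMAD5 and SMAD9. Both kinds of SMAD join SMAD4 to enter the nucleus, and secreted antagonists, a decoy receptor, inhibitory SMADs and SMURF ligases limit the signal. In endothelium, ACVRL1 (ALK1) with its co-receptor ENG (endoglin) is a receptor for the circulating ligands BMP9 (GDF2) and BMP10. Both were counted here with the BMP members only. That was a choice, any other ligand they serve is not counted, and comparisons of BMP with TGF-beta members depend on it. TGF-beta signalling is known to hold back the passage of hemogenic endothelium to blood cells.

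The 2 members that rose, BMP10 and SMAD3, and GDF2, which both Control libraries list at 0, are shown with the sequence before a RefSeq start, since HAND1 is a basic helix-loop-helix protein and such proteins bind the E-box. E-boxes (CANNTG, which reads the same on both strands) are in capitals. Sequences are from RefSeq on GRCh38.p14, 5′ to 3′ on the strand of the gene: BMP10 at chr2:68871518-68871647 (minus strand), where the bases nearest the RefSeq start are left off because the gene model of GENCODE includes them, GDF2 at chr10:47322204-47322453 (plus strand) and the most upstream of 5 RefSeq starts of SMAD3 at chr15:67065352-67065601 (plus strand). The SMAD3 window lies inside the longer GENCODE gene model but overlaps none of its exons.
BMP10: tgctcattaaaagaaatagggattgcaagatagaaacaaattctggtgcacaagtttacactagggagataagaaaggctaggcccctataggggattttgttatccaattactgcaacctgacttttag
GDF2: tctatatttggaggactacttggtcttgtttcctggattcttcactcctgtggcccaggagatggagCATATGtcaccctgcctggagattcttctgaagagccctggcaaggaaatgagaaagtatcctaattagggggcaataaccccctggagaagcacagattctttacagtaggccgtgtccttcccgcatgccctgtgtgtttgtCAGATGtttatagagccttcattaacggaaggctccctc
SMAD3: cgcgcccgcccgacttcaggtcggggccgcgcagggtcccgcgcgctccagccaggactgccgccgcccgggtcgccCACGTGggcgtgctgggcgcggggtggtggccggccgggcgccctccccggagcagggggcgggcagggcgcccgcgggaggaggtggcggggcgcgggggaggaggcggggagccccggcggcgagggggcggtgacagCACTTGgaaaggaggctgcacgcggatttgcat
The GDF2 window held E-boxes that began 183 and 39 bases before the start, and the second, CAGATG, is the reverse complement of CATCTG, an E-box that HAND proteins are known to bind. The SMAD3 window shown held E-boxes 173 and 33 bases before its start, and neither was of that kind. Windows of other SMAD3 starts, not shown, did hold that kind. Those at chr15:67098429-67098678 (CAGATG) and chr15:67125492-67125741 (CATCTG) each had 1, and the remaining windows had none. No E-box lay in the whole 250-base window of BMP10. Of 35116 RefSeq windows of 250 bases, 61.8% held an E-box and 12.2% held CATCTG on either strand, which is a case of the E-box. Of the 79 windows of the 49 members in that table, 48.1% held an E-box and 11.4% held CATCTG. The SMAD-binding letters CAGAC were in 38.0% of all windows and 32.9% of those of members, and the GC-rich SMAD element GGCGCC in 16.4% and 26.6%. Windows were not given for ACVRL1, SKI, BMP2, NOG, GDF6, BMP7, LEFTY1, LEFTY2, INHBE and BMP3.

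Values are FPKM, fragments scaled to transcript length and to the depth of the library, and pairs of values are given in the order replicate 1, replicate 2. Depth, read from the step a single fragment adds to single-exon genes, was 0.991 to 1.20 times that of Control replicate 1 in the other libraries. HAND1 itself stood at 12.1 and 14.3 FPKM in Control against 520 and 517 FPKM in HAND1_OE, a log2 difference of 5.20 ± 0.15 (SE, limma adjusted p = 0.00145). The CD31 gene PECAM1 was at 95.5 and 141 FPKM in Control against 92.0 and 160 FPKM in HAND1_OE, and 17 endothelial markers summed to 2460 to 2896 FPKM in the 4 libraries with overlapping groups. At an adjusted p under 0.05, 1 of these markers was higher (VWF, log2 difference 2.18) and 2 were lower (CLDN5, -2.27, and SOX18, -1.31). The 14 erythroid markers summed to 870 and 1253 FPKM in Control against 67.1 and 54.7 FPKM in HAND1_OE, with 9 of 10 tested lower at that threshold and none of the 14 at 0 in all libraries. The 13 fibroblast and stroma markers summed to 839 and 764 FPKM in Control against 1169 and 1190 FPKM in HAND1_OE. Of 11 tested, 4 were higher at that threshold, where 2.04% of all genes tested were, and 8 had a positive and 3 a negative log2 difference. Much of the sum came from THY1, at 378 and 383 FPKM in Control against 553 and 628 FPKM in HAND1_OE, which was not called. COL1A2 lay the other way, at 154 and 141 FPKM in Control against 68.6 and 101 FPKM in HAND1_OE, also not called. Megakaryocyte markers summed to 162 and 205 FPKM against 17.7 and 12.1, myeloid markers to 171 and 142 against 21.8 and 14.5, and markers shared by blood cells to 429 and 580 against 212 and 276. Epithelial markers summed to 251 and 269 FPKM in Control against 279 and 349 FPKM in HAND1_OE, with none of 8 tested called. Fewer cells of a type and less RNA per cell cannot be told apart in such samples, and the part of these shifts in the results below was not tested.

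**Figure D1:**
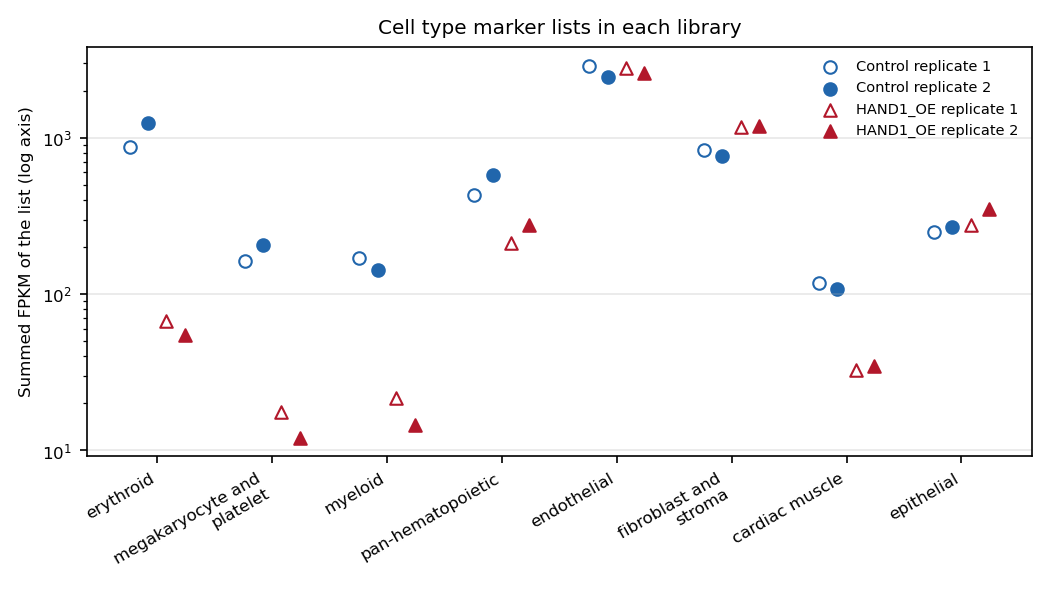
Summed FPKM (log axis) of 8 lists of cell type markers, with a point for each library, circles for Control and triangles for HAND1_OE. The endothelial sums lie between 2460 and 2896 in both groups, while the erythroid sums are 870 and 1253 in Control and 67.1 and 54.7 in HAND1_OE.

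Of the 59 members, 39 reached 1 FPKM in at least 2 libraries and were tested with limma on log2(FPKM + 1), and 20 did not. Of those tested, 2 rose in HAND1_OE at an adjusted p under 0.05, the ligand BMP10 and the signal transducer SMAD3, where 2.04% of all 14622 genes tested rose. BMP10 reached 1 FPKM in the HAND1_OE libraries only. No member fell, where 2.11% of all genes did, and 4.16% of all genes changed in either direction. At an unadjusted p under 0.05, 9 members were higher and 4 lower, against 6.82% and 10.6% of all genes. The groups did not overlap in 20 members, 12 with HAND1_OE on top and 8 with Control on top, where 16.2% and 30.1% of all genes tested were so arranged. The median log2 difference of the 39 was 0.11, beside -0.08 over all genes tested.

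By arm, 1 of 13 tested BMP members, 1 of 9 TGF-beta and activin members and 0 of 13 antagonists were called, and a difference between arms was not tested. Of 23 BMP arm members 13 were tested, 12 with a positive and 1 with a negative log2 difference, with a median of 0.31. The exception was SMAD1. That median was 0.088 over all genes above 0, 0.19 without HAND1_OE replicate 2 and 0.63 without HAND1_OE replicate 1, and BMP2, BMPR2, GDF7 and SMAD5 turned negative in at least 1 of the fits that leave out a library. In the TGF-beta and activin arm 9 of 15 were tested, 6 positive and 3 negative, with a median of 0.10, which was -0.020 to 0.033 with any 1 library left out. Among 17 antagonists 13 were tested, 6 positive and 7 negative, with a median of -0.15. The 3 members used by both arms, SMAD4, ACVR2A and ACVR2B, lay between -0.12 and 0.18. The summed level of the BMP arm was 204 and 192 FPKM in Control and 302 and 281 FPKM in HAND1_OE, and its groups did not overlap. Most of that sum came from its receptors, at 152 and 136 FPKM in Control and 252 and 209 FPKM in HAND1_OE. ACVRL1 and ENG were the highest of them, and neither passed the adjusted threshold. ACVRL1 was at 71.6 and 66.2 FPKM in Control against 141 and 113 FPKM in HAND1_OE. ENG was at 53.7 and 43.4 FPKM in Control against 81.6 and 59.4 FPKM in HAND1_OE. Without ACVRL1 and ENG, the sums of the rest of the BMP arm overlapped between the groups. The BMP ligands summed to 28.2 and 29.2 FPKM in Control and 31.7 and 42.1 FPKM in HAND1_OE. The sums of the BMP SMADs overlapped between the groups. The TGF-beta and activin arm summed to 320 and 274 FPKM in Control and 357 and 318 FPKM in HAND1_OE, with overlapping groups. These medians and sums carry no test, since members are not replicates.

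**Figure D2:**
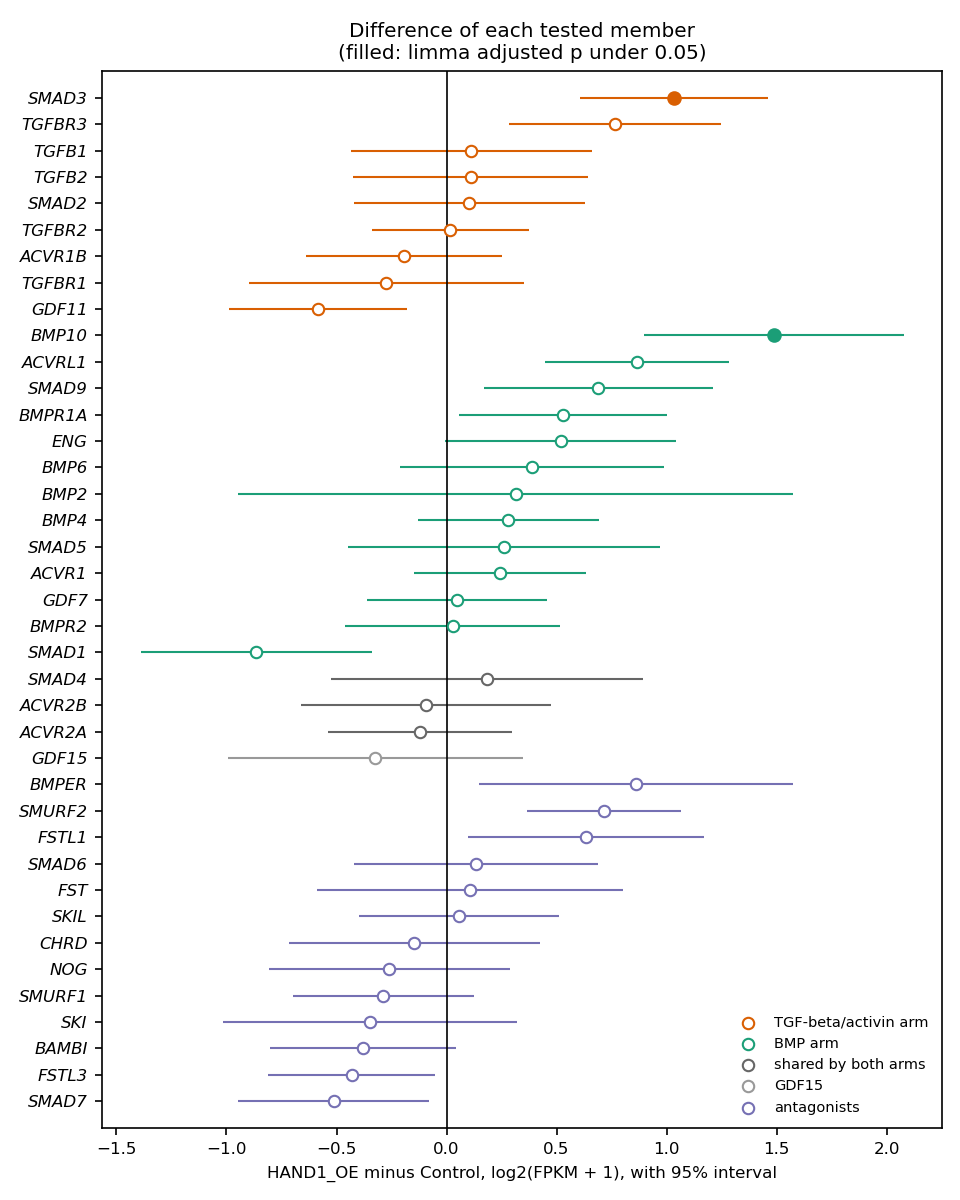
Log2 difference of HAND1_OE minus Control on log2(FPKM + 1), on the horizontal axis, for each of the 39 members tested, with 95% intervals from limma; colours give the arm, and filled points have an adjusted p under 0.05. BMP10 at 1.49 and SMAD3 at 1.03 are the filled points, and 12 of 13 BMP arm members lie right of 0.

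The ligands were led by TGFB1, the main TGF-beta of blood and vessel cells. TGFB1 (GRCh38 chr19:41301587-41353911) stood at 205 and 157 FPKM in Control against 225 and 167 FPKM in HAND1_OE. The groups overlapped, and the log2 difference of 0.11 had a 95% interval of -0.44 to 0.66. TGFB1 made up 95.7% to 97.7% of the summed FPKM of the 3 TGF-beta isoforms in every library, with TGFB2 at 4.18 to 6.06 FPKM and TGFB3 at 0.606 to 1.01 FPKM. An exon of TGFB1 overlaps one of HNRNPUL1, so some of its reads may be assigned to either gene. GDF15, a distant family member induced by stress that was placed in neither arm, was the second ligand at 51.6 and 83.5 FPKM in Control and 45.8 and 59.7 FPKM in HAND1_OE. Its groups overlapped, with a log2 difference of -0.32 (adjusted p = 0.638).

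BMP4, the BMP that patterns blood-forming mesoderm and that was also added to the culture, was the highest BMP ligand. It stood at 14.2 and 12.1 FPKM in Control against 15.1 and 17.2 FPKM in HAND1_OE. Both HAND1_OE libraries were above both Control libraries, by a log2 difference of 0.28 that did not pass (adjusted p = 0.484, interval -0.13 to 0.69). GDF7 ranged from 5.67 to 6.31 FPKM, BMP2 from 2.09 to 7.38 FPKM and BMP6 from 2.61 to 5.20 FPKM over the 4 libraries, each with overlapping groups. BMP2 was higher in replicate 2 than in replicate 1 of either group.

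BMP10, a ligand of ACVRL1 best known from the heart, rose. The gene (chr2:68865481-68871517) stood at 0.452 and 0.461 FPKM in Control against 2.49 and 3.78 FPKM in HAND1_OE. Every HAND1_OE library was above every Control library, and the ratio of group means was 6.87. On log2(FPKM + 1), which shrinks differences of low genes, the rise was 1.49 ± 0.24 (SE, n = 2 against 2, adjusted p = 0.0347). Both Control values were under 1 FPKM, so BMP10 met the filter only through HAND1_OE, the group where it was high. Its test is thus not independent of the filter. The gene has 1 transcript of 1584 bases, and its values correspond to about 12.9 and 13.0 fragments in Control and 85.1 and 111 fragments in HAND1_OE. The call was kept without HAND1_OE replicate 1 and lost with any other library left out. With Control replicate 1 left out the adjusted p was 0.0880, with Control replicate 2 left out 0.0930 and with HAND1_OE replicate 2 left out 0.0732. Over the 4 such fits the log2 difference lay between 1.26 and 1.71. With all genes above 0 tested, BMP10 had an adjusted p = 0.201, under a setting where no gene passed, HAND1 included. Of 6 cardiac muscle markers tested, none was called higher and 1, MYL4, was called lower, at 68.1 and 75.9 FPKM in Control against 4.68 and 3.85 FPKM in HAND1_OE. The cardiac troponin TNNT2 lay the other way, at 1.39 and 1.64 FPKM in Control against 3.50 and 6.37 FPKM in HAND1_OE (adjusted p = 0.0914). In all, 2 of the 6 had a positive and 4 a negative log2 difference, and MYL4 and TNNT2 were named after their values were seen. The summed list of 12 was 117 and 108 FPKM in Control and 32.9 and 34.8 FPKM in HAND1_OE, with none at 0 in all libraries. Most of the Control sum came from MYL4 and NKX2-5, so it does not describe the list as a whole. NKX2-5, also named after its values were seen, was at 40.9 and 22.9 FPKM in Control against 19.6 and 14.7 FPKM in HAND1_OE. The part of these markers in the BMP10 result was not tested.

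GDF2, which encodes BMP9, the other ligand of ACVRL1, was below the filter. Both Control libraries list it at 0, and the HAND1_OE libraries at 0.502 and 0.367 FPKM, so the groups did not overlap. These values correspond to about 22.0 and 13.8 fragments over a transcript of 1955 bases, while 3 fragments, the limit that a count of 0 allows, would give 0.0683 to 0.0826 FPKM. That limit covers counting error only. A value of 0 in such a table can also be a failed estimate, so no fold is given. Tested among all genes above 0, GDF2 had an unadjusted p = 0.00304 in limma and an adjusted p = 0.172. No gene passed under that setting, HAND1 included (adjusted p = 0.153), so it cannot decide on GDF2. Within the BMP ligands, BMP10 took 1.60% and 1.58% of the summed FPKM in Control and 7.86% and 8.97% in HAND1_OE. BMP4 took 40.8% to 50.2% in the 4 libraries.

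The other low ligands were lower in HAND1_OE or overlapped. Of the 20 members under the filter, 7 were lower in both HAND1_OE libraries and 2 higher, where 19.6% and 11.1% of all genes above 0 but under the filter were. BMP5 stood at 1.02 and 0.895 FPKM in Control against 0.292 and 0.511 FPKM in HAND1_OE. INHBB, the beta B chain of activin, stood at 0.278 and 0.269 FPKM in Control against 0.0262 and 0.0897 FPKM in HAND1_OE. About 17.8 and 17.1 fragments lay behind the Control values of INHBB and 2.01 and 5.89 behind those of HAND1_OE, so the lower value is within the limit of 3 fragments. NODAL was at 0.327 and 0.135 FPKM in Control against 0.0616 and 0.115 FPKM in HAND1_OE, and INHBA, the chain of the activin A that was added, lay between 0.0132 and 0.150 FPKM with overlapping groups. The remaining ligands under the filter, GDF6, BMP7, BMP8A, BMP8B, BMP3, GDF5, GDF10 and INHBE, were at most 0.817 FPKM in any library, and BMP3 was listed at 0 in both HAND1_OE libraries. BMP8A and BMP8B are near-identical copies, as are LEFTY1 and LEFTY2, so the split of reads between them is uncertain.

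**Figure D3:**
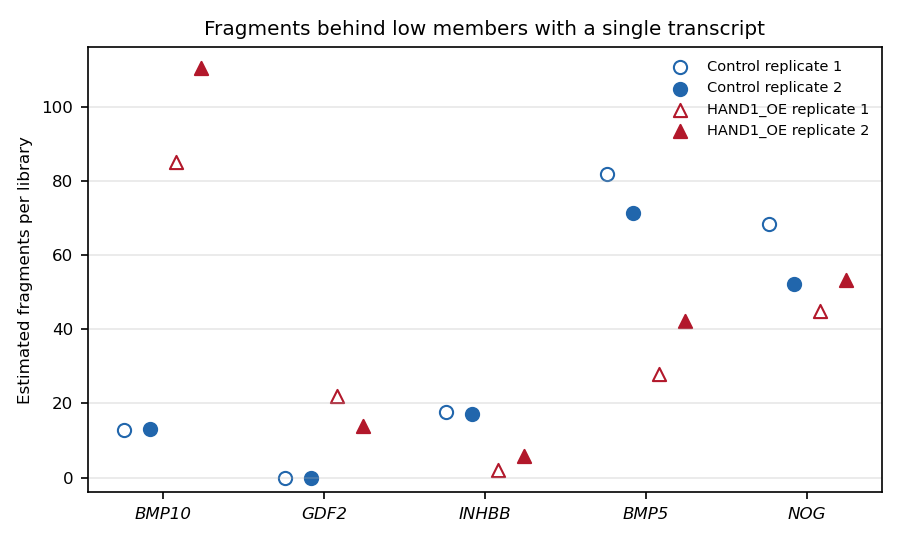
Estimated number of sequenced fragments (vertical axis) behind BMP10, GDF2, INHBB, BMP5 and NOG, members with 1 transcript and low levels, with a point for each library. BMP10 has about 13 fragments in each Control library and 85.1 and 111 in HAND1_OE, GDF2 is at 0 in Control, and INHBB and BMP5 are lower in HAND1_OE.

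GDF11, a ligand of the activin arm, had the most negative log2 difference of the 9 member ligands tested. It stood at 8.56 and 9.22 FPKM in Control against 5.86 and 5.33 FPKM in HAND1_OE. The groups did not overlap, and the difference of -0.59 ± 0.16 (SE) did not pass (adjusted p = 0.141). An exon of GDF11 overlaps the gene SARNP, which reached 62.6 FPKM.

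Among the receptors, ACVRL1 was the highest in every library. ACVRL1 (chr12:51906908-51923361), the endothelial type I receptor for BMP9 and BMP10, stood at 71.6 and 66.2 FPKM in Control against 141 and 113 FPKM in HAND1_OE. The groups did not overlap and the means differed 1.84-fold, with a log2 difference of 0.87 ± 0.17 (SE) that stayed above the threshold (adjusted p = 0.0557, interval 0.45 to 1.28). It passed with a filter of 1 FPKM in every library (adjusted p = 0.0466), with median-ratio scaling (0.0394) and with quantile normalization (0.0323). It also passed with the replicate number as a block (0.0193). Its adjusted p was above the threshold using 0.1 as pseudocount (0.0611), limma without the trend (0.0737) and all genes above 0 (0.214, where no gene passed). With a library left out, its log2 difference was 0.71 to 1.02. As a share of the summed FPKM of all 7 type I receptors, ACVRL1 took 66.7% and 62.9% in Control and 79.6% and 71.8% in HAND1_OE. Relative to PECAM1, ACVRL1 was at 0.750 and 0.468 in Control and at 1.53 and 0.708 in HAND1_OE, and on this measure the groups overlapped.

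ENG, the co-receptor that presents BMP9 and BMP10 to ACVRL1, stood at 53.7 and 43.4 FPKM in Control against 81.6 and 59.4 FPKM in HAND1_OE. The groups did not overlap, and the log2 difference was 0.52 ± 0.21 (SE, adjusted p = 0.293, interval -0.01 to 1.04). BMPR1A, a widely used BMP type I receptor, was at 9.70 and 8.77 FPKM in Control against 12.0 and 15.8 FPKM in HAND1_OE, a difference of 0.53 (adjusted p = 0.236). ACVR1 lay at 8.09 and 7.53 FPKM in Control against 9.75 and 9.11 FPKM in HAND1_OE, likewise apart. In all, 4 of the 5 tested BMP receptors were higher in both HAND1_OE libraries, an arrangement seen in 16.2% of all genes tested, and none passed the adjusted threshold. The fifth, the type II receptor BMPR2, ranged from 8.42 to 11.1 FPKM with overlapping groups. BMPR1B was at most 0.231 FPKM.

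The signalling receptors of TGF-beta overlapped between the groups. TGFBR2, the type II receptor that binds TGF-beta first, stood at 18.6 and 17.6 FPKM in Control against 18.1 and 18.5 FPKM in HAND1_OE. Its log2 difference of 0.02 had a 95% interval of -0.34 to 0.37. TGFBR1, its type I partner, was at 10.1 and 13.1 FPKM in Control against 7.46 and 11.7 FPKM in HAND1_OE, with overlapping groups and a difference of -0.27 (interval -0.90 to 0.35). The activin type I receptor ACVR1B ranged from 6.70 to 9.22 FPKM, and ACVR1C was at most 0.0950 FPKM. Of the type II receptors that serve activin and BMPs, ACVR2B ranged from 5.58 to 8.20 FPKM with overlapping groups. ACVR2A was at 5.96 and 5.38 FPKM in Control against 5.34 and 4.92 FPKM in HAND1_OE. Its groups lay narrowly apart, with a log2 difference of -0.12 (adjusted p = 0.804).

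TGFBR3 (betaglycan), a co-receptor that captures TGF-beta2 and inhibin, was the receptor of that arm whose groups lay apart. It stood at 36.5 and 26.3 FPKM in Control against 52.3 and 54.4 FPKM in HAND1_OE. The groups did not overlap, and the log2 difference of 0.76 ± 0.19 (SE) did not pass (adjusted p = 0.110). Of the summed FPKM of the type I receptors, TGFBR1 took 9.40% and 12.5% in Control against 4.22% and 7.37% in HAND1_OE. Its own FPKM overlapped between the groups. ACVRL1, higher in HAND1_OE, made up most of that sum, so the share of TGFBR1 depends on ACVRL1 too. The shares of the 4 type II receptors overlapped between groups for TGFBR2, which took 42.4% to 48.3%, and for BMPR2, which took 22.4% to 26.6%.

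SMAD3, which with SMAD2 carries the TGF-beta and activin signal to DNA, was the second member that rose. The gene (chr15:67063763-67195195) stood at 5.40 and 6.68 FPKM in Control against 13.0 and 13.7 FPKM in HAND1_OE. The groups were well apart, the means differed 2.21-fold and the log2 rise was 1.03 ± 0.17 (SE, adjusted p = 0.0379, interval 0.61 to 1.46). With any of the 4 libraries left out, the log2 difference was 0.90 to 1.17 and the adjusted p was 0.0729 to 0.155, so the call needed all of them. With all genes above 0 tested, the adjusted p was 0.174, under a setting where no gene passed, HAND1 included.

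SMAD2, the partner of SMAD3, stood at 23.1 and 26.6 FPKM in Control against 22.3 and 32.0 FPKM in HAND1_OE, a log2 difference of 0.10 (interval -0.42 to 0.63). SMAD2 stayed the most abundant receptor-regulated SMAD in all libraries. The ratio of SMAD3 to SMAD2 was 0.234 and 0.251 in Control and 0.585 and 0.429 in HAND1_OE. SMAD4, the common partner, was at 17.1 and 24.5 FPKM in Control against 18.3 and 29.7 FPKM in HAND1_OE, higher in replicate 2 of both groups.

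On the BMP side the receptor-regulated SMADs went separate ways. SMAD1 (chr4:145481194-145558079) stood at 10.9 and 11.4 FPKM in Control against 4.63 and 6.87 FPKM in HAND1_OE. The groups did not overlap, the ratio of means was 0.517 and the log2 difference was -0.86 ± 0.21 (SE, adjusted p = 0.1002, interval -1.39 to -0.34). Without HAND1_OE replicate 2 the difference was -1.11 and passed (adjusted p = 0.0493). With any other library left out it was -0.89 to -0.62 and did not (adjusted p = 0.252 to 0.318). SMAD9 was at 1.56 and 1.75 FPKM in Control against 2.82 and 3.79 FPKM in HAND1_OE, a difference of 0.69 (adjusted p = 0.170), again without overlap. SMAD5 lay at 10.9 and 13.1 FPKM in Control against 10.8 and 19.4 FPKM in HAND1_OE, where the groups overlapped.

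The makeup of the 5 receptor-regulated SMADs within a library therefore differed between the groups. SMAD3 took 10.4% and 11.2% of their summed FPKM in Control and 24.3% and 18.1% in HAND1_OE. SMAD1 took 21.0% and 19.1% in Control and 8.64% and 9.07% in HAND1_OE. The ratio of SMAD3 to SMAD1 was 0.497 and 0.588 in Control and 2.82 and 2.00 in HAND1_OE, so SMAD1 was the higher of the pair in both Control libraries and SMAD3 in both HAND1_OE libraries. SMAD2 and SMAD3 together took 55.0% and 55.9% in Control and 65.9% and 60.3% in HAND1_OE. An exact permutation test of 2 against 2 libraries cannot give a two-sided p below 0.333, so no test of a share is given.

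**Figure D4:**
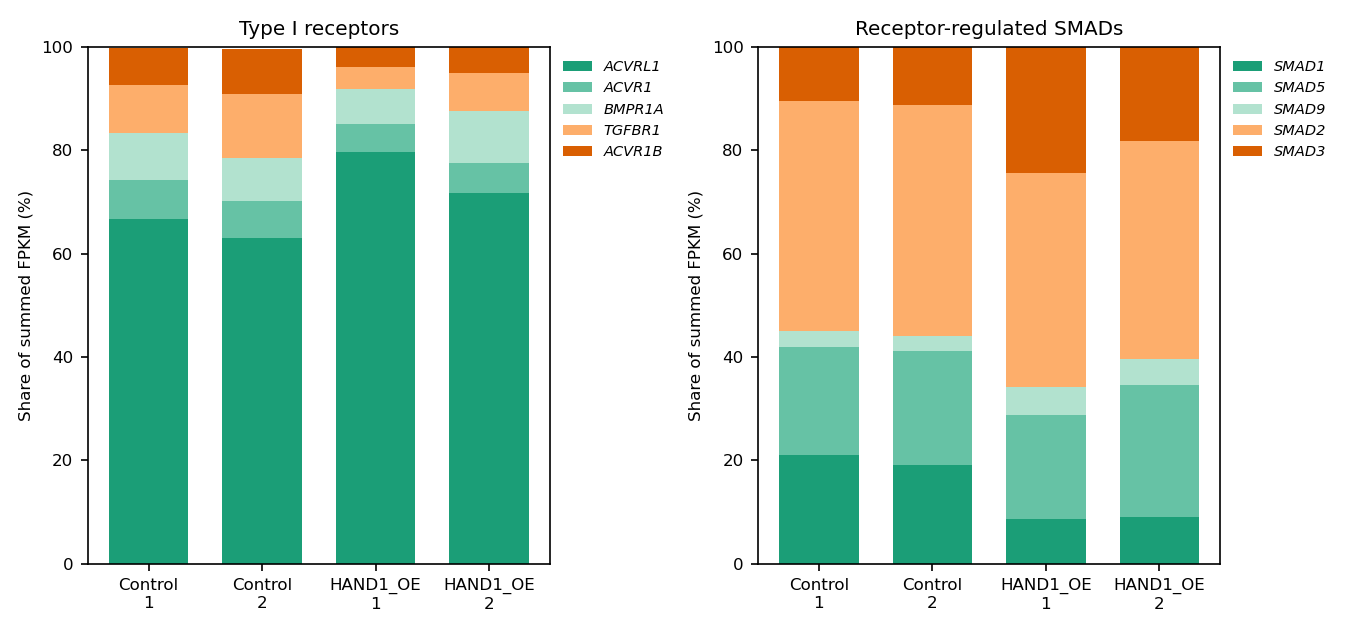
Share of summed FPKM (percent) taken by each type I receptor and by each receptor-regulated SMAD, with a bar for each library; BMPR1B and ACVR1C, each at most 0.220% of the type I receptors, are not drawn. ACVRL1 takes 66.7% and 62.9% in Control and 79.6% and 71.8% in HAND1_OE, and SMAD3 takes 10.4% and 11.2% against 24.3% and 18.1%.

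Of the inhibitors inside the cell, SMAD6, which blocks BMP receptors and is itself induced by BMP signals, was the highest of all 59 members. It stood at 258 and 185 FPKM in Control against 268 and 215 FPKM in HAND1_OE, with overlapping groups and a log2 difference of 0.13 (interval -0.42 to 0.69). SMAD7, which blocks the TGF-beta receptors as well, was at 33.5 and 25.9 FPKM in Control against 20.5 and 20.2 FPKM in HAND1_OE. These groups did not overlap, and the difference of -0.51 ± 0.17 (SE) did not pass (adjusted p = 0.217). The ratio of SMAD6 to SMAD7 was 7.72 and 7.14 in Control and 13.1 and 10.6 in HAND1_OE.

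SMURF2 and SMURF1, related ubiquitin ligases that mark receptors and SMADs for breakdown, had differences of opposite sign. SMURF2 (chr17:64542295-64662068) stood at 15.9 and 16.0 FPKM in Control against 26.2 and 27.5 FPKM in HAND1_OE, a log2 difference of 0.71 ± 0.14 (SE, adjusted p = 0.0591). It passed with median-ratio scaling (adjusted p = 0.0424), with quantile normalization (0.0460) and with the replicate number as a block (0.0267). Its adjusted p was above the threshold using 0.1 as pseudocount (0.0624), limma without the trend (0.0778) and all genes above 0 (0.161, where no gene passed). The same held for 1 FPKM in every library (0.0597). With a library left out, its log2 difference was 0.68 to 0.75. An exon of SMURF2 overlaps the gene CEP95, which reached 22.8 FPKM. SMURF1 was at 8.60 and 8.25 FPKM in Control against 6.25 and 7.23 FPKM in HAND1_OE, a difference of -0.29 (adjusted p = 0.471). SMURF2 was thus 1.85 and 1.94 times SMURF1 in Control and 4.19 and 3.80 times in HAND1_OE.

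BAMBI, a decoy receptor without a kinase, stood at 55.3 and 58.3 FPKM in Control against 38.6 and 48.9 FPKM in HAND1_OE. Both HAND1_OE libraries were below both Control libraries, with a log2 difference of -0.38 (adjusted p = 0.343). SKI, a corepressor of SMAD complexes, was at 25.7 and 44.6 FPKM in Control against 26.6 and 26.3 FPKM in HAND1_OE, where only Control replicate 2 stood apart. The related SKIL ranged from 8.46 to 11.0 FPKM.

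FSTL1, a follistatin-like glycoprotein of mesenchyme, was the most abundant secreted inhibitor. It stood at 109 and 117 FPKM in Control against 146 and 213 FPKM in HAND1_OE, without overlap and with a log2 difference of 0.63 ± 0.22 (SE, adjusted p = 0.217). BMPER, an endothelial protein that binds BMPs and can hold back or promote their signal, was at 54.4 and 39.3 FPKM in Control against 66.1 and 109 FPKM in HAND1_OE. Its difference was 0.86 ± 0.29 (SE, adjusted p = 0.207), with most of the spread in HAND1_OE. FSTL3, which binds activin, lay on the other side at 15.2 and 13.9 FPKM in Control and 10.9 and 10.1 FPKM in HAND1_OE, a difference of -0.43 (adjusted p = 0.231).

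The classical BMP antagonists were low. NOG (noggin) was at 1.94 and 1.49 FPKM in Control against 1.07 and 1.47 FPKM in HAND1_OE, narrowly apart (log2 difference -0.26, adjusted p = 0.647). CHRD (chordin) ranged from 1.35 to 2.13 FPKM and the activin antagonist FST (follistatin) from 1.44 to 2.69 FPKM, both with overlapping groups. CHRDL1 was at most 0.184 FPKM, and GREM1 was at most 0.00314 FPKM and listed at 0 in a library of each group. LEFTY1, an antagonist of nodal that nodal signalling induces, was at 0.560 and 0.787 FPKM in Control against 0.114 and 0.0980 FPKM in HAND1_OE. LEFTY2 ranged from 0.248 to 0.463 FPKM with overlapping groups.

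**Figure D5:**
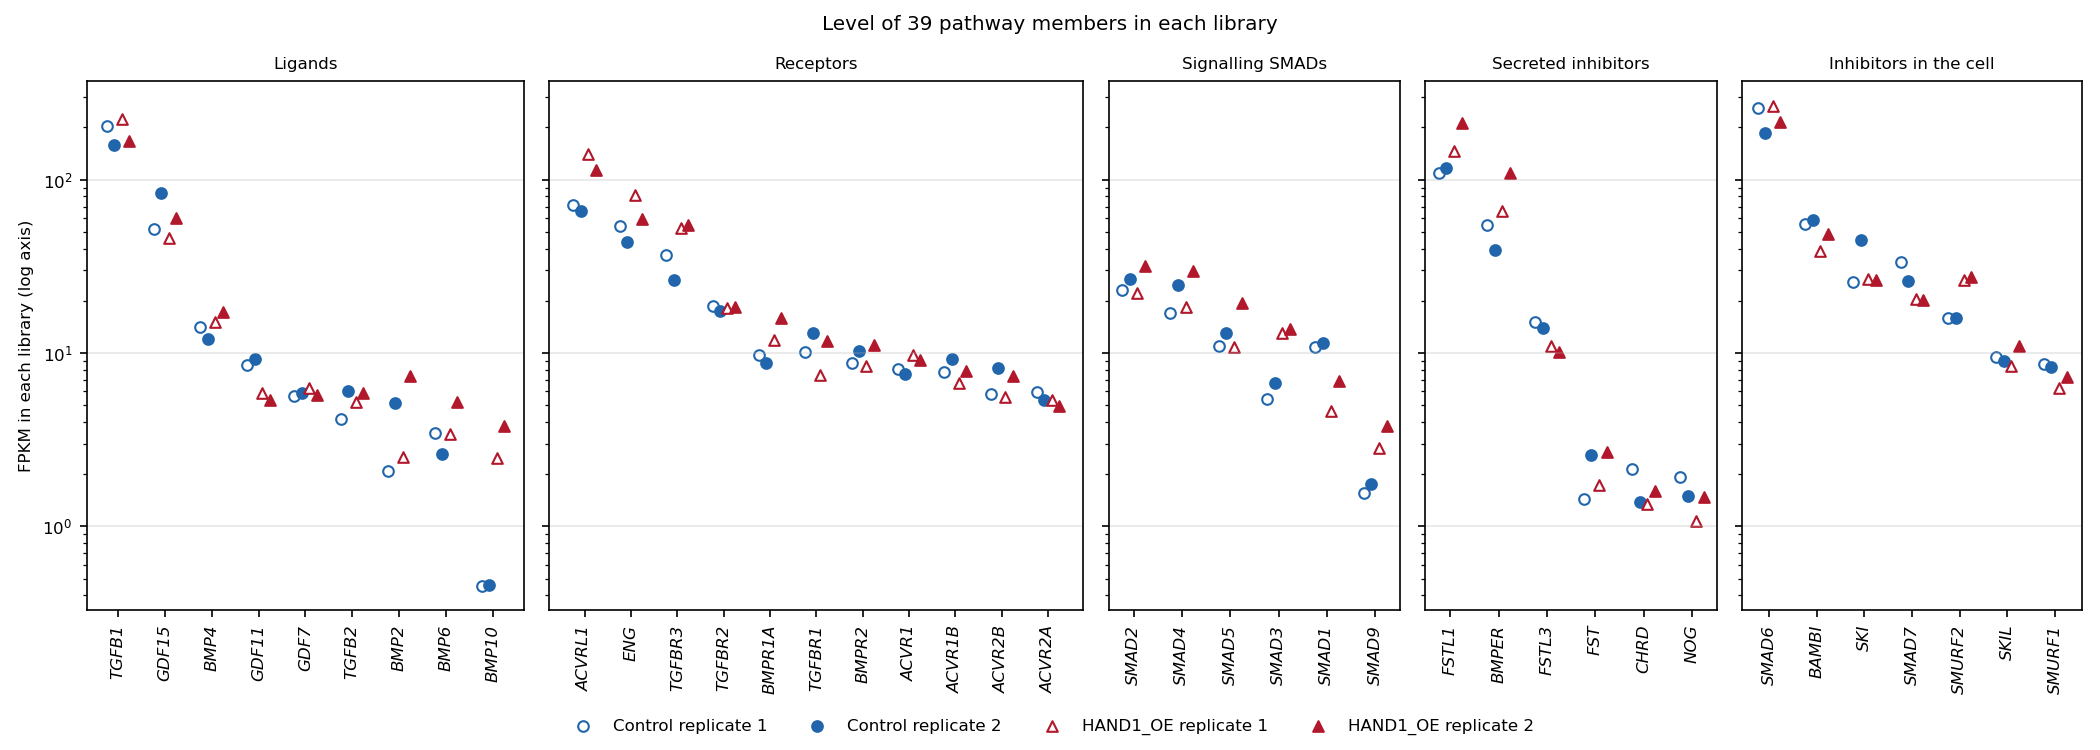
FPKM (log axis) of the 39 members tested, in 5 panels by role and in order of mean level, with a point for each library. SMAD6, TGFB1, FSTL1 and ACVRL1 are the highest members, and the HAND1_OE triangles stand clear of the Control circles for BMP10, SMAD3, ACVRL1, SMURF2 and, in the other direction, SMAD1 and GDF11.

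In order of mean FPKM over the 4 libraries the members began with SMAD6 at 232, TGFB1 at 189, FSTL1 at 146, ACVRL1 at 98.0, BMPER at 67.2, GDF15 at 60.2, ENG at 59.5, BAMBI at 50.2 and TGFBR3 at 42.4. Each of these overlapped its neighbours in that order in the range of the 4 libraries, so no 2 neighbours were separated by their spread.

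Other genes of the pathways and their known targets were read from lists of 105 genes, of which 82 were tested, 6 rose and 5 fell, with a median log2 difference of -0.12, where 2.04% and 2.11% of all genes tested did. With all genes above 0 tested, none passed in limma, nor did any other gene (14 higher and 12 lower where the unadjusted p was under 0.05). The genes called lower numbered 2 without Control replicate 1 and 1 without Control replicate 2. Of 16 tested genes that store, release or process the ligands, 3 rose and 1 fell. LTBP2, a matrix protein related to those that hold latent TGF-beta, rose from 2.11 and 2.09 FPKM in Control to 10.8 and 12.5 FPKM in HAND1_OE (log2 difference 2.02, adjusted p = 0.00754). FBN1 (fibrillin-1), the microfibril protein to which these complexes are tethered, rose by 1.55 (adjusted p = 0.0199). BMP1, which despite its name is a protease that cleaves procollagens and chordin, rose by 1.06 (adjusted p = 0.0250). EMILIN1, a matrix glycoprotein that restrains processing of the TGF-beta precursor, fell by 0.99 (adjusted p = 0.0370). FBN1 is also in the fibroblast and stroma list, whose sum was higher in HAND1_OE. LRRC32 (GARP), which displays latent TGF-beta on the cell surface and was named after its values were seen, was at 19.9 and 9.49 FPKM in Control against 75.6 and 35.5 FPKM in HAND1_OE, apart but with an adjusted p = 0.106. LTBP4, the highest gene of the list and also named after its values were seen, lay the other way. It was at 394 and 287 FPKM in Control against 194 and 179 FPKM in HAND1_OE (log2 difference -0.85, adjusted p = 0.0939). Of the 16 tested, 9 had a positive and 7 a negative log2 difference.

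Among 21 tested targets of TGF-beta and activin, 4 rose and 1 fell, with a median of 0.06. TGFBI, a matrix protein named for its induction by TGF-beta, rose from 36.7 and 26.7 FPKM in Control to 224 and 192 FPKM in HAND1_OE, a log2 difference of 2.69 (adjusted p = 0.00700). LTBP2 is also on this list. POSTN (periostin) rose by 1.97 (adjusted p = 0.00900) and FN1 (fibronectin) by 1.36 (adjusted p = 0.0280), and POSTN is also a stromal marker. Both Control values of POSTN were under 1 FPKM (0.825 and 0.922), so POSTN met the filter only through HAND1_OE. JUNB, an AP-1 transcription factor, fell by 1.31 (adjusted p = 0.0174). At an unadjusted p under 0.05, 5 genes of the list were higher and 3 lower.

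Among 18 tested targets of BMP, none rose in limma and 1 fell, with a median of -0.26. At an unadjusted p under 0.05, 3 were higher and 5 lower. HEY2, an endothelial repressor, fell from 36.5 and 31.9 FPKM in Control to 12.7 and 16.3 FPKM in HAND1_OE (log2 difference -1.19, adjusted p = 0.0311). ID1, the most used readout of SMAD1 and SMAD5 activity, was at 676 and 535 FPKM in Control against 500 and 502 FPKM in HAND1_OE, and ID3 at 229 and 152 FPKM against 200 and 161 FPKM. TMEM100, an endothelial target of ACVRL1 chosen here with ID1 and ID3 after its values were seen, was at 95.1 and 40.3 FPKM in Control against 190 and 166 FPKM in HAND1_OE, apart but with an adjusted p = 0.120.

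The remaining lists held few calls. Of 3 other ligands tested, GDF3, a nodal-related ligand of early embryonic cells, fell from 8.20 and 6.45 FPKM in Control to 1.19 and 1.06 FPKM in HAND1_OE (log2 difference -1.96, adjusted p = 0.0104). Of 18 regulators inside the cell, FOXH1, a DNA-binding partner of SMAD2 in the nodal response, fell by 1.61 (adjusted p = 0.0219). None of 7 co-receptors and none of 8 other secreted inhibitors tested passed in limma, where 0 and 1 were higher and 3 and 1 lower at an unadjusted p under 0.05.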

How the data were processed

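RNA was measured in 2 Control and 2 HAND1_OE libraries, grouped by sample title. The authors deposited a table with a value per gene and library, taken here as FPKM, the unit the study plots. The submitters' processing notes name BWA, Bowtie, RSEM and hg19, with no versions, but the table's coordinates match GRCh38: 56 of 59 members had the same ID and coordinates in GENCODE 29. An exon of 21 members overlaps another gene. The 45 rows for Y copies and 91 repeated rows were left out.

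The analysis used log2(FPKM + 1) of genes that reached 1 FPKM in 2 or more libraries and limma 3.58.1 (R 4.3.3, mean-variance trend, two-sided), adjusted by Benjamini-Hochberg over all 14622 genes; summaries were made with Python 3.11.15 and pandas 2.3.3. The code was tested on simulated data. Each list is described by counts and its median, without a set test. Fragments were estimated from FPKM, depth and transcript length less a fragment length of 280 nucleotides, read from single-exon genes. A gene of the target lists is not reported here by name. Arms, lists and members were chosen with earlier results of these data known.

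Full values are given for members called or with a group mean of at least 10 FPKM, and for up to 4 called genes of each list with the largest differences. Alternatives were a pseudocount of 0.1, all genes above 0, 1 FPKM in every library, median-ratio scaling, quantile normalization, limma without the trend, a fold change of 2 as a further threshold, the replicate number as a block, and each library left out.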

Additional observations from a re-analysis of the deposited data

How the results depend on the processing

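HAND1 kept its direction in all fits run, but with all genes above 0 tested its log2 difference of 5.20 had an adjusted p = 0.153, and under that setting 0 genes were called higher and 0 lower (limma, 1458 and 2352 at an unadjusted p under 0.05), as were 0 members (8 higher and 7 lower before adjustment) and 0 of the other pathway genes and targets in either direction (14 and 12). BMP10 and SMAD3 were called higher with a pseudocount of 0.1 and without the trend. With a fold change of 2 as a further threshold, 264 genes were called higher and 279 lower, 2 members higher, and 6 and 4 of the other pathway genes and targets. The members called higher numbered 4 with median-ratio scaling and 4 with quantile normalization, in both cases BMP10, SMAD3, ACVRL1 and SMURF2. With 1 FPKM in every library ACVRL1 and SMAD3 were called, and BMP10 was not tested.

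The median of the BMP arm was 0.38 with a pseudocount of 0.1, 0.088 over all genes above 0, 0.38 with median-ratio scaling and 0.42 with quantile normalization, and that of the antagonists was -0.22, -0.063, -0.088 and -0.029. Quantile normalization turned ACVR2B to 0.011.

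With a library left out, the genes called higher numbered 134 to 266 and lower 137 to 309, members called higher 0 to 1 and lower 0 to 1, and other pathway genes and targets 4 to 6 higher and 1 to 5 lower. The median was 0.19 to 0.63 for the BMP arm, -0.22 to -0.076 for antagonists and -0.020 to 0.033 for the TGF-beta and activin arm. A lone library was assumed to vary like the others. BMP10 alone was called without HAND1_OE replicate 1, SMAD1 alone, as lower, without HAND1_OE replicate 2, and no member without either Control library. In 17 members the sign turned, and their log2 differences ranged as follows: ACVR2B -0.31 to 0.12, BMP2 -0.31 to 0.94, BMPR2 -0.16 to 0.21, CHRD -0.34 to 0.050, FST -0.17 to 0.38, GDF15 -0.66 to 0.018, GDF7 -0.015 to 0.11, SKI -0.73 to 0.039, SKIL -0.11 to 0.22, SMAD2 -0.15 to 0.35, SMAD4 -0.15 to 0.52, SMAD5 -0.13 to 0.65, SMAD6 -0.11 to 0.37, TGFB1 -0.099 to 0.32, TGFB2 -0.11 to 0.33, TGFBR1 -0.56 to 0.016, TGFBR2 -0.020 to 0.056.

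Replicate numbers are shared between the groups, but nothing in the labels pairs the samples, and the difference of replicate 1 and 2 in Control correlated with that in HAND1_OE over 14622 genes at r = 0.383, with 2 pairs only. With the replicate number as a block, 597 genes were called higher and 712 lower, 5 members higher (ENG joined ACVRL1, BMP10, SMAD3 and SMURF2), and 14 and 9 of the other pathway genes and targets. The causes of these shifts were not tested.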
